A study of Glycine max with 2 samples.

Results

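FLOWERING LOCUS T (FT) genes encode florigen, a small protein of the phosphatidylethanolamine-binding (PEBP) family that is made in leaf phloem and moves to the shoot tip, where it sets off flowering. In Arabidopsis, FT works there with the bZIP factor FD and switches on MADS-box genes of flower identity, while TERMINAL FLOWER 1, of the same family, acts against it. Soybean (Glycine max), a short-day plant, has several FT copies, and FT2a is known as one of its flowering promoters. Here 2 FT genes were followed, Glyma.16G150700, described in the deposited tables as PEBP protein FT2a and matched to rice HD3A, and Glyma.16G044100, described as an FT-like protein and matched to Arabidopsis FT. They were chosen by gene identifier, and both were already known to be listed at both ages and to lie on opposite sides at them, so the values below describe that choice and test nothing. They are 2 of 3358 genes that the tables list, and each is represented by a single transcript, isoform 1, at both ages. Their label was checked against the deposited annotation, in which both are matched to Arabidopsis AT1G65480, the FT gene; 2 transcripts had that match at 50 days and 3 at 95 days.

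The series compared leaves of greenhouse-grown soybean of plants that senesce early or late, at 50 and at 95 days after sowing, grown under normal conditions. Each age has 1 table by the authors comparing a library A with a library B. Which letter is the early type, and whether a letter means the same type at both ages, is stated by no header or label, so the letters are kept. The deposited files are named for an early-versus-late comparison, but the names tie neither column to a type and were not used. The labels used here name no cultivar, plant number, pooling or hour of harvest. Since every type and age is a single library (n = 1), nothing below could be checked against replicates, and the p-values of the authors speak of pairs of libraries rather than of types.

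The tables list transcripts with the authors' unadjusted p under 0.05 only, 2413 at 50 days and 2471 at 95 days. Levels are normalised reads, the deposited value minus 1, which is a library's whole-number count divided by its size factor. They are not corrected for transcript length, so levels are compared between libraries and not between genes. Library depth is unknown because of that listing. Folds carry a 95% exact (Clopper-Pearson) interval on the reads, and a fold against 0 reads is given as at least its value against 3 reads in that library, a set floor whose fold lies above the lower limit of such an interval. Intervals and bounds cover counting error only.

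At 50 days, both FT transcripts were read in library A and not at all in library B. FT2a had 191 normalised reads in A, from 238 reads, and 0 in B. That put it at least 67.8-fold higher in A, with a deposited log2 ratio of B over A of -7.59. The FT-like transcript had 266 normalised reads in A, from 331 reads, and 0 in B. Its level in A was at least 94.3-fold higher, with a deposited log2 ratio of -8.06. The absence of reads in B limits each transcript there to below 2.82 normalised reads, the level of 3 reads, and does not show that the gene was silent. An empty lower library was common, found in 70.5% of the transcripts listed at that age. A single isoform was listed per gene, so the genes' totals over all isoforms are not known, and in whole leaf fewer cells making FT and less FT RNA per cell cannot be told apart.

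At 95 days, both transcripts were read in both libraries and lay on the other side. In A, FT2a had 57.3 normalised reads, from 46 reads, and in B 1364, from 1247 reads. It was 23.8-fold higher in B (17.7 to 32.7), with a deposited log2 ratio of 4.55. The FT-like transcript had 64.8 in A, from 52 reads, and 1103 in B, from 1008 reads. It was 17.03-fold higher in B (12.9 to 22.96), with a deposited log2 ratio of 4.07. Centred on the median of all listed transcripts, the log2 ratio at 95 days was 0.027 for FT2a and -0.45 for the FT-like transcript. The same centring gave -2.29 and -2.77 at 50 days. That median is itself set by the side that holds more transcripts, so no side is read from the centred values. The lower library thus had reads of both FT transcripts at this age and none of either at 50 days.

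**Figure D1:**
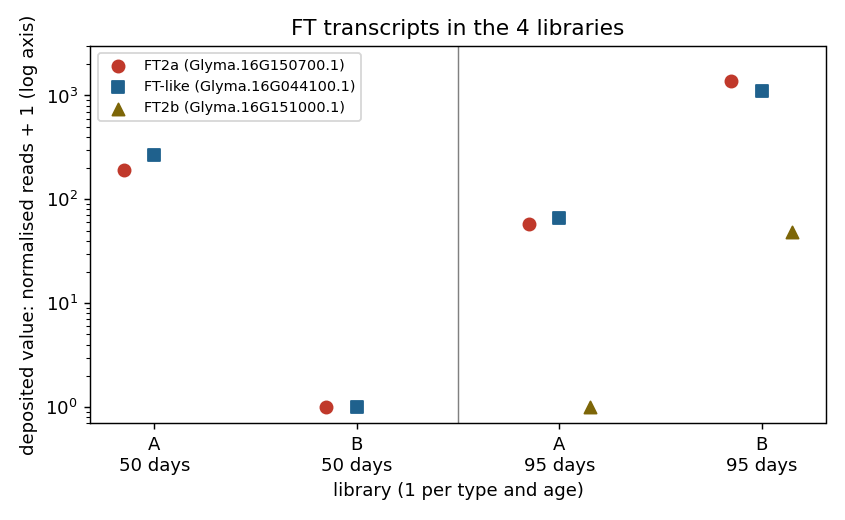
Deposited value (normalised reads plus 1, log axis) of each FT transcript in the 4 libraries, 1 library per type and age; a value of 1 means no read. FT2a and the FT-like transcript stand at 192 and 267 in A and at 1 in B at 50 days, and at 58.3 and 65.8 in A and 1365 and 1104 in B at 95 days; FT2b is shown at 95 days, where it was listed.

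None of the 4 comparisons passed the call rule, which asks for an adjusted p under 0.05 in the authors' deposited table and a log2 ratio of 1 or more in size. By that rule 4.64% of listed transcripts were called at 50 days and 1.50% at 95 days. In the authors' deposited table the adjusted p at 50 days was 0.108 for the FT-like transcript and 0.153 for FT2a, from unadjusted values of 0.000421 and 0.000795. At 95 days the authors' deposited table gives adjusted p-values of 0.827 for FT2a and 1 for the FT-like transcript, from 0.019 and 0.031. At 50 days, 10.03% of listed transcripts had a smaller p than the FT-like one and 13.4% a smaller p than FT2a. The shares at 95 days were 74.2% and 55.7%, so the FT transcripts ranked lower by p at the later age. By side, 60.8% of all listed transcripts were higher in A at 50 days and 53.3% higher in B at 95 days; the side of the FT genes was part of their choice and nothing is read from it.

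Both genes had the same order over the 4 libraries, B at 95 days highest, then A at 50 days, A at 95 days and B at 50 days. FT2a in B at 95 days was 7.14-fold above A at 50 days (6.21 to 8.24), and the FT-like transcript 4.15-fold (3.66 to 4.71). From A at 50 days to A at 95 days FT2a was lower by 3.33-fold (2.42 to 4.68) and the FT-like transcript by 4.10-fold (3.06 to 5.61). The lowest step, A at 95 days against B at 50 days, was at least 20.3-fold for FT2a and at least 22.99-fold for the FT-like transcript. Counting error separated each neighbouring pair, but the spread between plants is not known for any of them. If the letter B stands for the same type at both ages, FT2a was at least 484-fold higher there at 95 than at 50 days and the FT-like transcript at least 391-fold by that floor; the lower limits of the exact interval were 393 and 318.

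Of 788 transcripts listed at both ages, 21 (2.66%) had that order of 4 libraries. In the same 788, 22.5% lay in A at 50 days and in B at 95 days, 40.2% in A at both, 27.8% in B at both and 9.52% in B and then A. No read in B at 50 days together with reads in the other 3 libraries, the form both FT transcripts took, was found in 33 of them (4.19%).

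**Figure D2:**
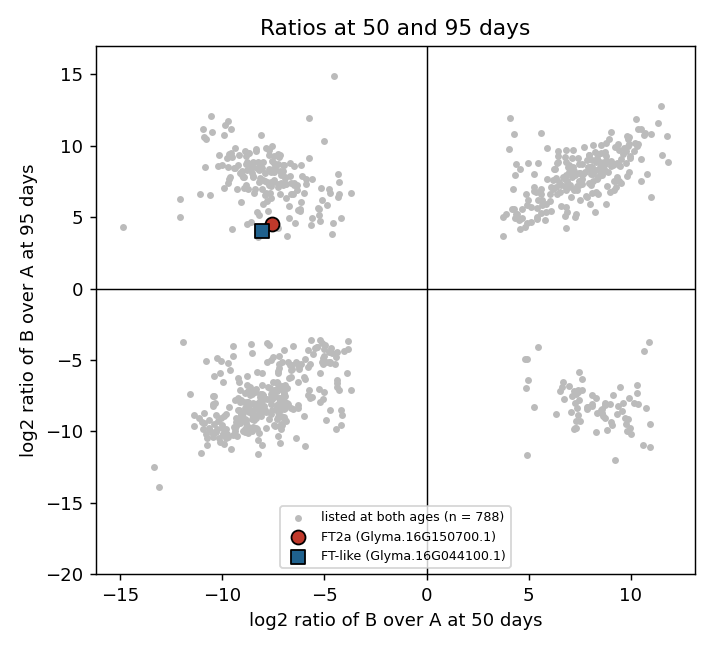
Deposited log2 ratio of B over A at 50 days (x axis) and at 95 days (y axis) of the 788 transcripts listed at both ages, with FT2a and the FT-like transcript marked. Both lie in the upper left, at -7.59 and 4.55 and at -8.06 and 4.07; the gap around 0 on each axis comes from listing only p under 0.05.

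The balance between the genes differed among libraries. FT2a made up 41.8% of the 569 reads of both transcripts in A at 50 days (95% exact interval 37.7 to 46.0). In A at 95 days it made up 46.9% of 98 reads (36.8 to 57.3), and in B at 95 days 55.3% of 2255 reads (53.2 to 57.4). The share in A at 50 days and that in B at 95 days did not overlap in their counting intervals, while that in A at 95 days overlapped both. Size factors cancel in this share, and so does transcript length when libraries are compared, but the spread between plants is not known. In B at 50 days neither transcript had a read.

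**Figure D3:**
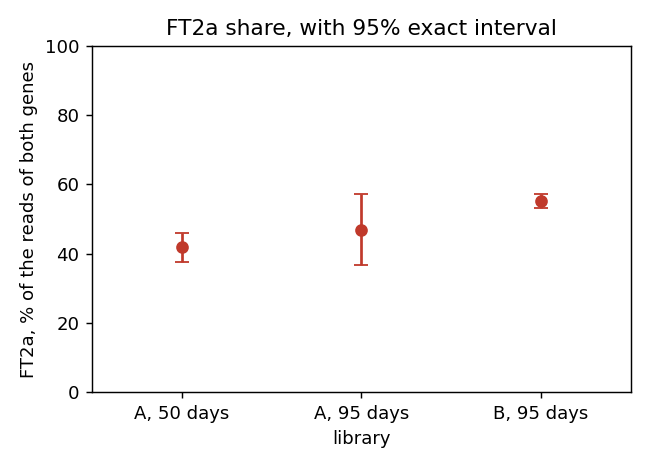
Share of FT2a among the reads of FT2a and the FT-like transcript in each library with reads, in percent, with the 95% exact interval as bars. It was 41.8% in A at 50 days, 46.9% in A at 95 days and 55.3% in B at 95 days.

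Another FT copy was listed at 95 days. Glyma.16G151000.1, described as FT-like protein 2b (FT2b), had no read in A and 43 reads in B, a normalised level of 47.0. It was at least 12.6-fold higher in B, with an adjusted p of 1 in the authors' deposited table. All 3 listed PEBP transcripts at 95 days therefore had more reads in B, as did 53.3% of all listed transcripts. FT2a and the FT-like transcript were chosen with their side known, so FT2b is the only one this adds. FT2b gave 3.33% of the 1290 reads of FT2a and FT2b in that library (2.42 to 4.46). In the RefSeq annotation of Glycine_max_v4.0, FT2A and FT2B are neighbours on chromosome 16 with 1 gene between them; they are close copies, and it is not stated how reads that fit several FT copies were counted. FT2b was not among the transcripts listed at 50 days, and no transcript described as TERMINAL FLOWER was listed at either age.

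Across the 4 libraries, each FT transcript had the other as its nearest profile. Nearness was the Euclidean distance over 4 log2 deposited values, among the 788 transcripts listed at both ages, and FT2a and the FT-like transcript were 0.59 apart. The next nearest to both was Glyma.02G035800.7, matched to the BOI ubiquitin ligase, at 1.72 from FT2a and 1.80 from the FT-like transcript. Its normalised reads at 50 days were 219.9 in A and 0 in B, and at 95 days 18.7 in A and 858 in B. An AUX/IAA family protein matched to IAA17, Glyma.13G361200.1, lay 2.35 from the FT-like transcript and 2.60 from FT2a. A probable amino-acid racemase, Glyma.17G116500.1, lay 2.49 from FT2a and 2.87 from the FT-like transcript. The remaining near profiles were the cytochrome P450 71D10, Glyma.08G109900.1, at 2.68 from FT2a, and Glyma.08G179400.3, matched to the clock co-activator LNK1, at 2.52 from the FT-like transcript. Of these 5, Glyma.08G179400.3 alone passed the call rule at an age, at 50 days, with an adjusted p of 0.0441 in the authors' deposited table. With 4 points per transcript, such likeness is a description only.

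**Figure D4:**
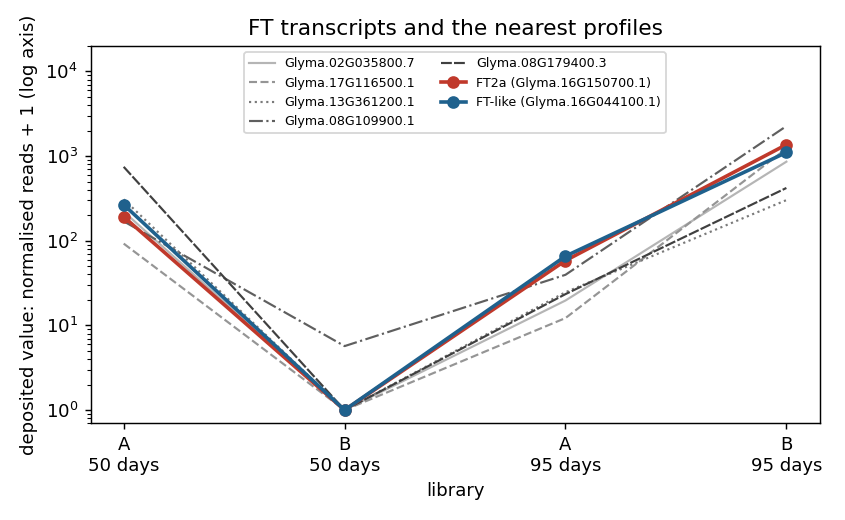
Deposited value (normalised reads plus 1, log axis) over the 4 libraries for both FT transcripts and the 5 other transcripts among their nearest profiles; lines only join the values of 1 transcript. The FT curves lie 0.59 apart, and those of the other transcripts between 1.72 and 2.87 from the FT transcript they are near to.

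MADS-box transcripts did not share one side. At 50 days, 3 were listed, 1 higher in A and 2 in B, against 60.8% in A among all listed. Their median log2 ratio of B over A was 6.04, and that of all listed transcripts -5.29. Since listing leaves a gap around 0, such medians mostly follow the side that holds more transcripts. All 3 MADS-box transcripts were matched to SVP (short vegetative phase), which in Arabidopsis represses FT. For Glyma.02G041500.1, A held 93.9 normalised reads and B 0, at least 33.3-fold higher in A. Glyma.07G181600.2 had 12.8 in A and 909.9 in B, 70.8-fold higher in B (43.4 to 124). Glyma.08G068200.4 had 0 in A and 317 in B, at least 132-fold higher in B. SVP-like transcripts of different genes thus stood on the FT side and opposite to it.

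At 95 days, 4 MADS-box transcripts were listed, 2 higher in A and 2 in B, against 46.7% in A among all listed. Their median log2 ratio was 0.24, which falls in the gap between the sides, and that of all listed was 4.52. Both SVP-like ones lay in A, opposite to FT. Glyma.02G041500.1, the only MADS-box transcript listed at both ages, had 48.6 in A and 0 in B, at least 14.8-fold higher in A. Glyma.08G068200.7 had 645 in A and 0 in B, at least 197-fold higher, whereas isoform 4 of its gene was the one read in B at 50 days. On the FT side were Glyma.08G065300.1, described as MADS-box factor 23-like, with 0 in A and 487 in B, and Glyma.16G200700.2, matched to rice MADS6, with 0 in A and 67.8 in B. The lowest adjusted p of these 7 MADS-box comparisons was 0.261 in the authors' deposited table, so none was called.

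**Figure D5:**
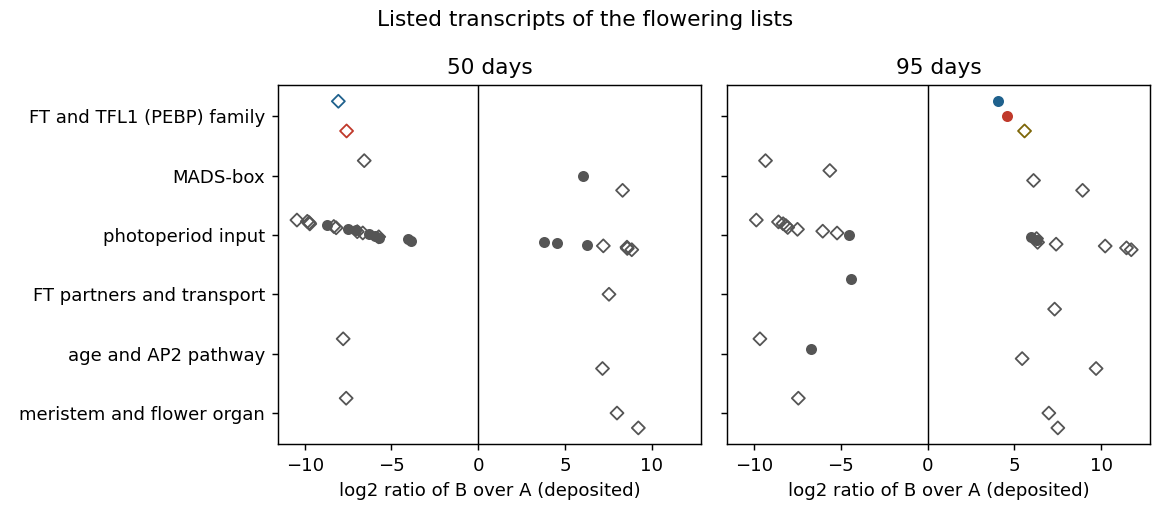
Deposited log2 ratio of B over A (x axis) of every listed transcript in 6 flowering lists (rows) at 50 days (left) and 95 days (right); open diamonds had no read in the lower library, filled circles had reads in both, and vertical offsets only separate points. FT2a is red, the FT-like transcript blue and FT2b dark yellow: the FT transcripts lie left of 0 at 50 days and right of 0 at 95 days, while the MADS-box transcripts divide 1 and 2, then 2 and 2.

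Genes of the photoperiod pathway, which sets FT in Arabidopsis, lay mainly in A at 50 days, as did all listed transcripts. Of 24 transcripts of 18 genes, 17 were higher in A (70.8%, against 60.8% of all listed) and 7 in B. Their median log2 ratio was -6.12 against -5.29 over all listed. Of the 24, 1 was called, beside 4.64% of all listed transcripts, so nothing is read from that count. With 1 transcript per gene the division was 15 in A and 3 in B. Isoforms of Glyma.13G276700 and of Glyma.03G203000 lay on both sides, so that division depends on the isoform kept. The 60.8% counts transcripts, and no such share was worked out per gene. GIGANTEA, which promotes FT in Arabidopsis, stood at 4334 in A against 9.39 in B (Glyma.10G221500.1), 462-fold (251 to 963). All 4 listed cyclic DOF factors, known in Arabidopsis as repressors of CONSTANS and FT, also had more reads in A. They ran from Glyma.06G194800.1, with 4036 in A and 63.9 in B, to Glyma.04G168300.1, with 1804 and 123. Transcripts described as CONSTANS-like divided 6 in A and 3 in B. CONSTANS-LIKE 2, Glyma.18G278100.2, had 1393 in A and 0 in B, at least 495-fold higher. The called member, Glyma.13G303700.1, is described as CONSTANS-LIKE 1-like and matched to Arabidopsis AT5G54470. Its symbol is that of a microProtein, a short B-box protein that in Arabidopsis holds CONSTANS in an inactive complex. Whether the soybean gene acts as that microProtein was not tested. The transcript had 853 in A and 0 in B, with an adjusted p of 0.0390 in the authors' deposited table. The 3 CONSTANS-like transcripts in B were all isoforms of Glyma.14G190400, of which isoform 5 had 0 in A and 458 in B. GIGANTEA and the cyclic DOF factors, which act on FT in opposite directions in Arabidopsis, thus lay together on the FT side. How these genes act on FT in soybean was not tested.

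At 95 days the same list held 17 transcripts of 15 genes, 9 higher in A (52.9%, against 46.7% of all listed) and 8 in B. Its median log2 ratio was -4.55 against 4.52 over all listed. With so even a division and a gap around 0, that median only shows which side held more. None of the 17 was called. No GIGANTEA or cyclic DOF transcript matched it at that age. CONSTANS-like transcripts divided 4 in A and 1 in B, so most lay opposite to FT. Glyma.18G278100.2, Glyma.13G303700.1 and Glyma.07G091400.1 were on the A side at both ages, where A held 179, 36.1 and 285 normalised reads at 95 days and B none. Glyma.14G190400.5, in contrast, had 932 in A and 0 in B.

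SPA proteins and COP1 form the ubiquitin ligase that in Arabidopsis removes CONSTANS in the dark. Isoforms 3 and 4 of Glyma.16G027200, an SPA1-like gene, lay on the same side as FT at both ages. At 50 days isoform 3 stood at 919.8 in A and 0 in B, and at 95 days at 0 in A and 2816 in B. Isoform 4 had 834 and 0, then 0 and 3403. A second SPA1 gene, Glyma.07G058200.3, had 0 in A and 1201 in B at 95 days. The SPA3-like Glyma.13G276700.3, with 319 in A and 0 in B, and Glyma.12G224600.3, with 64.8 and 0, were opposite to FT at that age. In all, 5 SPA transcripts lay in A and 2 in B at 50 days, and 2 and 3 at 95 days. COP1, listed at 95 days only, lay opposite to FT at that age, with 384 in A and 0 in B for Glyma.14G049700.1. For SPA3-like Glyma.13G276700 the side depended on the isoform: at 50 days isoform 2 had 884 in A and 15.96 in B, and isoform 1 had 7.22 in A and 642 in B.

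Of the list of FT partners and transport, 1 transcript was listed at 50 days and 2 at 95 days. Glyma.03G010200.1 has the symbol of FTIP1, which in Arabidopsis helps FT leave the companion cell. It is described as QUIRKY-like and matched to Arabidopsis AT4G11610, and whether it carries FT was not tested. This transcript had 0 in A at both ages, and 184 and 159 in B. It was thus opposite to FT at 50 days and on its side at 95 days. A 14-3-3 protein, Glyma.06G101500.4, of a family that bridges FT and FD in rice, had 1265 in A and 59.1 in B at 95 days, 21.4-fold (16.3 to 28.7). Over the flowering lists, 10 transcripts besides the FT genes were listed at both ages; 3 lay in A and then in B as FT did, 4 in A at both ages, 2 in B at both and 1 in B and then in A.

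Marker transcripts of leaf and other cell types gave few values beside these, by lists of words and symbols widened after the values were seen. Of the phloem list, in whose companion cells FT is made, 6 were listed at 50 days, 3 higher in A and 3 in B, and 3 at 95 days, 1 in A and 2 in B. Their normalised reads summed to 17946 in A and 1353 in B at 50 days. Most of the sum in A came from Glyma.06G166800.1, with 16253. That transcript is matched to the sugar exporter SWEET12 but described as SWEET15, and whether it marks phloem here was not tested. At 95 days the sums were 300.2 in A and 421 in B. An APL-like MYB factor, Glyma.15G263700.5, matched to the Arabidopsis regulator of phloem identity, lay in B at both ages, with 0 in A and 131 in B and then 0 and 288. It was thus opposite to FT at 50 days and on its side at 95 days. No transcript matched to the companion cell transporter SUC2 was listed. Of mesophyll markers, chlorophyll-binding proteins, 5 were listed at 50 days, 4 higher in A and 1 in B, summing to 5424 in A and 1025 in B. At 95 days 1 was listed, Glyma.19G261400.1, with 33.6 in A and 1061 in B, the side of FT. The nodule and root list, picked by names alone, summed to 44045 in A and 847 in B over 5 transcripts at 50 days. At 95 days it summed to 1497 and 44.9 over 2. Whether its transcripts mark nodule or root in leaf was not tested. At 50 days the seed list had 2 transcripts in A and 1 in B, summing to 425 and 2765, and the xylem list had 1, with 0 in A and 288 in B; neither had any at 95 days. The flower bud and guard cell words matched no transcript at either age. Outside those words, a transcript matched to the guard cell channel KAT1, Glyma.15G094600.1, had 95.5 and then 39.9 in A and 0 in B. The part of cell makeup in the FT values was not tested.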

How the data were processed

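The 4 libraries were made from leaf RNA and sequenced with Illumina NovaSeq chemistry according to the labels' protocols. The submitters' processing notes name Trimmomatic 0.36 for trimming and DESeq 1.36.0 for the comparison, and no source used here names the aligner, counter, build or annotation. The authors' deposited columns A and B hold a never-negative signal. In each column all values minus 1 were whole multiples of 1 step, within 0.01 of a whole number (100% of values), so reads were recovered by dividing by it; no count model was run, since there is 1 library per type and age. Implied size factors were 1.25 (A) and 1.06 (B) at 50 days and 0.803 and 0.914 at 95 days. Comparing ages takes them as scaled together, which no source states. The deposited log2 ratio is that of the deposited B and A values, their added 1 kept. All p-values, adjusted or not, were taken from the authors' tables. At 50 days 1 repeated row was dropped.

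The members and lists were chosen with earlier results of these data known. Lists were made from words in the symbol, match and description; the photoperiod words were narrowed after the rows were seen, to leave out E1 enzymes and a protein matched to SPA15. Named were all FT, PEBP and MADS-box transcripts, up to 6 per other list and age by absolute log2 ratio, and the 5 nearest profiles per member; other transcripts were named after their values were seen. Alternatives covered the handling of 0 reads, centring, summing isoforms, the call rule, a minimum value of 100 and list membership. The recovery of reads and the intervals were tested on simulated data. The tools were scipy 1.17.1, numpy 2.4.6, pandas 2.3.3 and matplotlib 3.10.9 under Python 3.11.15.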

Additional observations from a re-analysis of the deposited data

Results flagged for a closer look

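Both FT transcripts lay on opposite sides at the 2 ages, which is what singled them out here; with 1 library per type and age the difference was not tested. The log2 ratio of B over A at 95 days minus that at 50 days was 12.13 for both the FT-like transcript, Glyma.16G044100.1, and FT2a, Glyma.16G150700.1. Other flowering transcripts lay in A and then in B too, also untested: the SPA1-like isoforms Glyma.16G027200.3 and Glyma.16G027200.4, with differences of 21.31 and 21.44, and the APETALA 2-like Glyma.19G178200.3, with 15.11. The CONSTANS-LIKE 9-like Glyma.14G190400.5 lay in B and then in A, with -18.71. These differences keep the deposited added 1, and where a library had no read their size is set by it: that is so at 50 days for the FT transcripts and at both ages for the other 4, so only their direction can be read. For the FT-like transcript the ratio at 95 days was on the A side (-0.45) when centred on the median of all listed transcripts. That median is itself set by the side that holds more of them.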

How the results depend on the processing

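No paired analysis was possible because each type and age has 1 library, and none could be left out. Setting 0 reads to 0.5 or 3 reads kept the side of both FT transcripts at 50 days and stayed within their counting intervals. At 95 days both libraries had reads, so this setting only removed the added 1. The log2 ratios were then 4.57 for FT2a and 4.09 for the FT-like transcript. Summing listed isoforms could change nothing, since each gene had 1 listed isoform. Centring on the median of all listed transcripts (-5.29 at 50 days, 4.52 at 95 days), which is itself set by the side that holds more of them, gave log2 ratios of -2.29 for FT2a and -2.77 for the FT-like transcript at 50 days, and 0.027 and -0.45 at 95 days, the last on the other side of 0. Centring the differences between ages on transcripts listed at both could change nothing, since their median was 0 in each column. With 0 reads set to 3 reads, or centred on transcripts with reads at both ages (added after seeing the data; medians -0.25 in A and 0.31 in B), they kept their direction. The count of called transcripts, 112 at 50 days and 37 at 95 days, was 3 and 0 with adjusted p under 0.01 and 214 and 132 under 0.1; no FT transcript was called under any of these. The sums over the 6 flowering lists, 22 in A and 13 in B at 50 days and 15 and 18 at 95 days, moved by under 1.5 times under each alternative, including the photoperiod words unrestricted, which was added after seeing the data. Single lists moved more: a minimum value of 100 left 0 of 1 MADS-box transcript in A at 50 days, 1 of 2 on each side at 95 days and 1 of 2 age-pathway transcripts in B at 95 days; words in the description only left 1 of 2 MADS-box transcripts in B at 95 days and 0 of 1 FT-partner transcript in B at each age; and 1 transcript per gene left 3 of 7 photoperiod transcripts in B at 50 days.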

Other observations

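Transcripts of the age-pathway list and of the meristem and flower organ list were few and divided. At 50 days the squamosa promoter-binding-like transcripts were Glyma.02G121300.2 (SPL6), with 219 normalised reads in A and 0 in B, and Glyma.07G234200.2 (SPL1), with 0 in A and 142 in B. At 95 days the latter had 0 in A and 835 in B, and SPL14, Glyma.20G006400.2, had 807 in A and 0 in B. Some SPL factors promote flowering with plant age in Arabidopsis. Whether the SPL transcripts listed here do so was not tested. The APETALA 2-like Glyma.19G178200.3 had 194 in A and 0 in B at 50 days and 0 in A and 181 in B at 95 days, the sides of FT at both ages. WUSCHEL-related WOX1-like Glyma.05G245900.2 had 0 in A and 596 in B at 50 days. Of the knotted-1-like transcripts at 95 days, Glyma.03G231100.3 had 0 in A and 126 in B, and Glyma.09G095700.2 had 173 in A and 0 in B. None of these was called.

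Transcripts with the symbol of RAP2-7, an AP2-like factor also called TOE1 that in Arabidopsis represses FT, were outside the words of the lists. They were named after their values were seen. The APETALA 2-like Glyma.19G178200.3, in the meristem and flower organ list, has the same Arabidopsis match, AT2G28550, and is not counted here. At 50 days Glyma.15G044400.2 had 57.0 in A and 0 in B. At 95 days 4 were listed, isoforms of Glyma.12G073300 and Glyma.U022100. All had more reads in B, as did 53.3% of all listed transcripts. They were Glyma.12G073300.3 with 0 in A and 1149.8 in B, Glyma.12G073300.1 with 3.74 and 766, Glyma.U022100.6 with 0 and 311, and Glyma.U022100.3 with 0 and 302. Those listed lay on the side of FT at their age, but none was listed at both ages, and none was called.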
